A study of Mus musculus with 2 samples.

Results

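Renin-rich spots are those positions of a kidney section at which renin RNA took the largest share of the captured RNA. They were chosen in a section from a mouse given SH045, a small-molecule blocker of the cation channel TRPC6, profiled on a 10x Genomics Visium slide, whose barcoded spots each catch polyadenylated RNA from the tissue lying on them. A spot is not a cell: it is a patch of tissue in which cells of more than 1 type can lie. Among the 788 spots with at least 1000 UMIs (counts of distinct captured RNA molecules), the share of Ren1 in each spot's UMIs was computed, and the 79 spots at or above its 90th percentile were called renin-rich. The other 709 spots, called remaining spots, are what they were compared with. Ren1 chose the spots, so its own values are given as a description and it was left out of every comparison.

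The SH045 section came from a C57BL/6 mouse treated with SH045, and the Vehicle section, used only for the same rule applied side by side, from a C57BL/6 mouse treated with Vehicle. In both, the profiled kidney was described as the one whose ureter had been tied off (unilateral ureteral obstruction), taken 7 days after that surgery. The obstruction is thus stated for both, but the sections differed widely in RNA levels, as given with the Vehicle section below. The labels give no dose, age or sex, and each treatment has 1 section of 1 mouse. No test is therefore possible and none was made; every interval is an exact 95% interval that covers counting error only, and UMIs were the unit counted.

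Renin is the aspartic protease that cuts angiotensinogen and so starts the cascade leading to angiotensin II. In the adult kidney it is made by juxtaglomerular cells, modified smooth muscle cells in the wall of the afferent arteriole where that vessel enters the glomerulus, a place called the vascular pole. There they lie beside the macula densa, a plaque of tubular cells that senses salt and signals to them, and beside glomerular mesangium and podocytes. When renin demand stays high, smooth muscle cells further up the arteriole can take up renin synthesis again. Cyclic AMP drives the gene, and in the mouse a binding element for HOX proteins in the proximal promoter is known to be needed for its activity.

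The Ren1 gene (ENSMUSG00000070645) lies on mouse chromosome 1 at 133350674 to 133360320 in GRCm38.p6. The 250 bases upstream of its start are shown next to those of Akr1b7, an aldo-keto reductase known in the mouse to be co-expressed with renin in juxtaglomerular cells, because Akr1b7 was the gene of the juxtaglomerular list with the largest fold in the renin-rich spots. Both sequences are from RefSeq, chr1:133350424-133350673 (+) and chr6:34412112-34412361 (+), and capitals mark a match to TGATTTA (the core of the HOX element, here on the opposite strand and so read as TAAATCA) or to TATAAA (the TATA box).
Ren1: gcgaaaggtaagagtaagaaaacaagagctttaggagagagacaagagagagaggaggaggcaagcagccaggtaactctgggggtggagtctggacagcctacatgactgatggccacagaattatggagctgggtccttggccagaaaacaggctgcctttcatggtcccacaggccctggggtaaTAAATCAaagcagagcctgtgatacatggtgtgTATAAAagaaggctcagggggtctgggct
Akr1b7: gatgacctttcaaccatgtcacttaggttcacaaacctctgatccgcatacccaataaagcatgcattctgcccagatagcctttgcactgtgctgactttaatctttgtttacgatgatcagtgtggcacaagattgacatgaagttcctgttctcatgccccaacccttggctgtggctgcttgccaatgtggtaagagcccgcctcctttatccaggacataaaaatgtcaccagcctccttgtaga

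In the Ren1 promoter the TGATTTA match began 62 bases upstream of the gene's start and TATAAA 29 bases upstream, 1 match each. Akr1b7 had neither. Both strands were searched, and over 32851 promoters of the same length TGATTTA was found in 2.61% and TATAAA in 12.4%. TGACG, the core of a cyclic AMP response element, was in 17.8% of these promoters and in neither of the 2 shown. The 2 matches do not overlap, and a match describes letters only.

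Ren1 RNA was very unevenly spread. The 79 renin-rich spots held 2937 of the section's 3907 Ren1 UMIs, 75.2%, with 9.46% of all its UMIs. Summed over spots, Ren1 stood at 1387 CPM (UMIs per 1e+06 UMIs) in renin-rich spots and at 47.9 CPM in remaining spots. A renin-rich spot had between 2 and 750 Ren1 UMIs with a median of 13, and a remaining spot between 0 and 10 with a median of 1. A few spots dominated: the highest had 750 UMIs, 19.2% of the section's Ren1, the second 467, and the 10 highest together 1958, or 50.1%. The next 4 by share had 188, 89, 80 and 94 UMIs. At the other end 10 renin-rich spots rested on 5 or fewer Ren1 UMIs, while 55 had 10 or more. No Ren1 UMI at all was captured in 263 spots, 33.4% of those used.

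**Figure D1:**
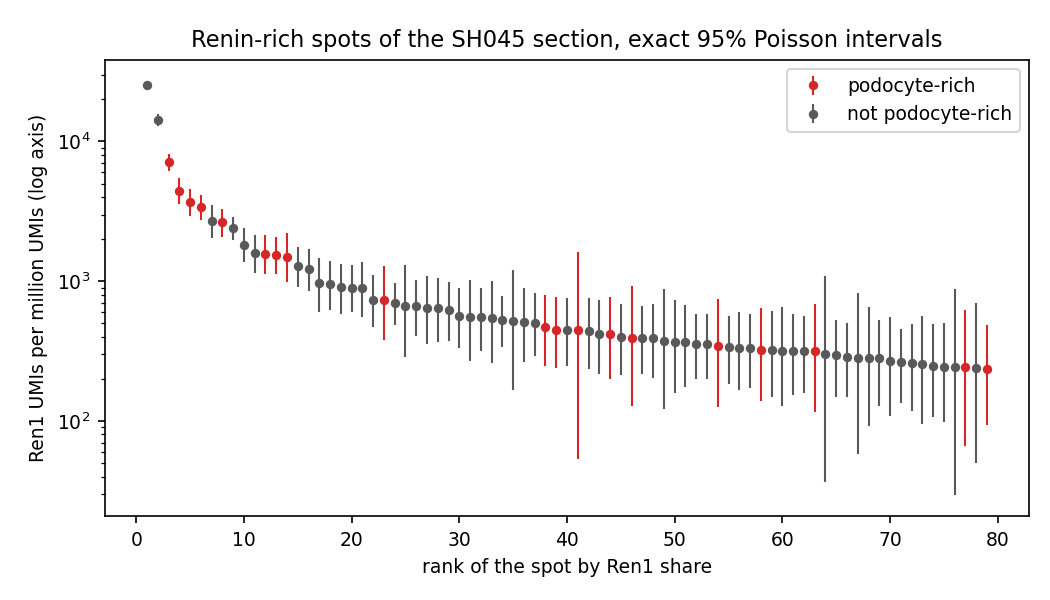
Ren1 CPM (log axis) of each of the 79 renin-rich spots, ranked, with exact 95% Poisson intervals; red spots are also podocyte-rich. Levels fall steeply over the first 20 or so ranks, and from rank 4 on the intervals of neighbours overlap down to the last, at 234 CPM.

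At the boundary of the class the counting intervals overlapped. The last spot inside had 7 Ren1 UMIs among 29871 (234 CPM, 94.2 to 483), and the first outside 4 among 17214 (232 CPM, 63.3 to 595). Depth was alike on both sides, with a median of 27955 UMIs (4502 to 50444) per renin-rich spot and 27656 (2545 to 72340) per remaining spot. Mitochondrially encoded genes gave 4.87% of UMIs in renin-rich spots and 4.18% in remaining spots.

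Renin-rich spots sat together. Of the grid neighbours of renin-rich spots 45.3% were renin-rich too, against 6.20% of the neighbours of remaining spots. They formed 23 connected groups, of which the 3 largest had 19, 14 and 13 spots and together 58.2% of all members, and 12 were single spots. The group of 19 held the spot with 750 UMIs and 26.8% of the section's Ren1. A group of 3 held the spot with 467 UMIs. The median distance from the tissue edge was 4 grid steps in both classes, but 13.9% of renin-rich spots and 25.8% of remaining spots lay 7 or more steps in. When the section was split by row and then by column into 4 blocks of similar spot number, the blocks held 46, 8, 24 and 1 of the renin-rich spots. Folds within blocks are given below for the first 3 only, since the fourth rests on a single renin-rich spot.

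**Figure D2:**
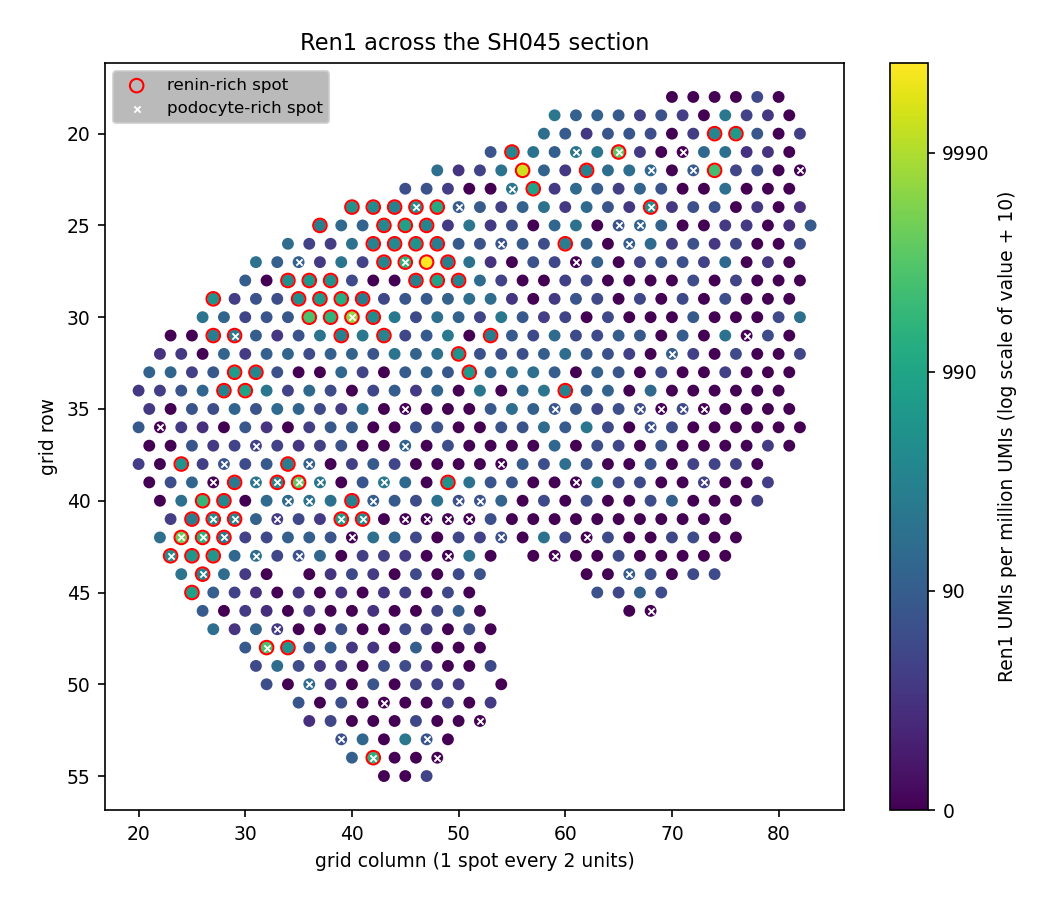
Spots of the SH045 section at their grid row and column, coloured by Ren1 CPM on a log scale; red rings mark the 79 renin-rich spots and white crosses the 79 podocyte-rich spots, the same number chosen by the summed share of podocyte genes. Rings gather along the upper left and left margin, while crosses are scattered over the section.

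Around the renin-rich spots Ren1 tapered with distance. In remaining spots 1 grid step away it stood at 87.9 CPM (80.1 to 96.3; 172 spots), at 2 steps at 48.5 CPM (42.7 to 54.8), at 3 steps at 33.1 CPM and at 4 steps at 24.9 CPM (18.1 to 33.4). From 4 to 8 steps it varied between 16.0 and 30.3 CPM. The 6 spots around the one with 750 UMIs had 9 to 39 Ren1 UMIs, and the 6 around the one with 467 had 3 to 28. Akr1b7 did not have enough UMIs for a gradient: 5.52 CPM (3.70 to 7.92) at 1 step and 3.40 CPM (2.01 to 5.37) at 2 steps. Since every spot outside the class lies below its threshold, the level at 1 step is capped by the rule. How far RNA moved on the slide between neighbouring spots was not tested.

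**Figure D3:**
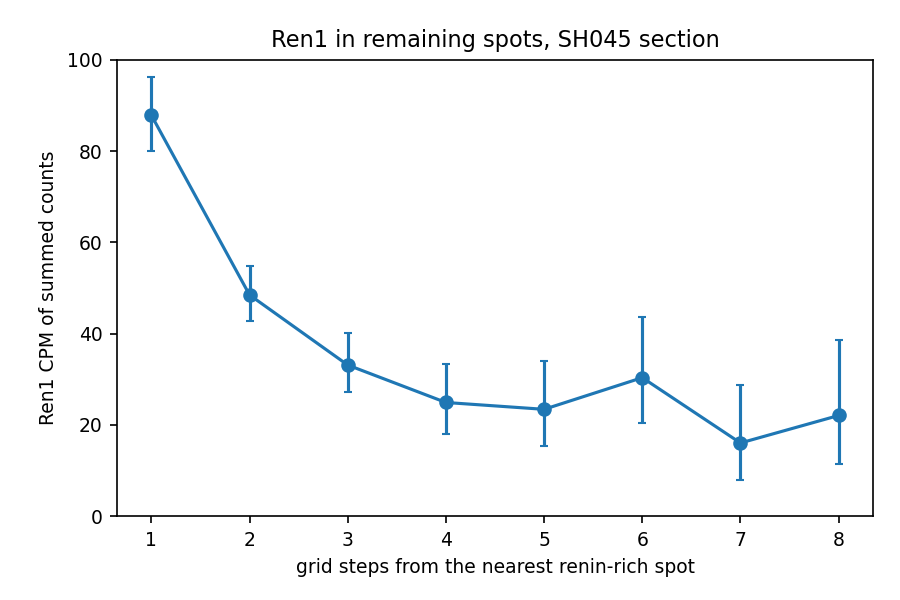
Ren1 CPM of summed counts in remaining spots by grid steps from the nearest renin-rich spot, with exact 95% Poisson intervals. The level at 1 step, 87.9 CPM, is above those at 2 steps and beyond, and the intervals from 4 to 8 steps overlap.

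Akr1b7, the co-expressed reductase, had the largest fold of the measured juxtaglomerular genes. It had 76 UMIs in renin-rich spots and 74 in remaining spots, 35.9 against 3.65 CPM, a fold of 9.84 (7.05 to 13.7). The renin-rich spots thus held 50.7% of its UMIs. Its spot counts went from 0 to 14 in renin-rich spots and from 0 to 2 in remaining spots, and 5 renin-rich spots but 0 remaining spots had 5 or more. The spots with 750 and 467 Ren1 UMIs had 14 and 11 Akr1b7 UMIs, those with 94 and 80 had 7 and 5, yet the spots with 74 and 109 had none. The fold was 10.5, 8.88 and 9.17 within the blocks with 46, 8 and 24 renin-rich spots, and 8.14 without the spot of most Akr1b7. At least 1 Akr1b7 UMI was found in 39.2% of renin-rich spots (28.4 to 50.9%) and 9.31% of remaining spots (7.27 to 11.7%). After thinning every spot to 10000 UMIs, which left out 4 renin-rich and 16 remaining spots, the shares were 18.7% and 3.46%.

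Over all genes, 10451 reached 10 CPM in the class with the higher level and were counted as measured. Of these, 237 (2.27%) were at least 1.5-fold higher in renin-rich spots and 365 (3.49%) at least 1.5-fold lower, with a median fold of 0.991. These shares are the background for the lists below. The same filter acts on both: a gene below 10 CPM in 1 class was measured only if it was higher in the other. Counts of sparse genes called in 1 direction are partly set by that filter.

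Of the 25 juxtaglomerular genes 16 were measured, 5 were higher and none lower, with a median fold of 1.28. Besides Akr1b7 these were Hopx, a homeodomain protein without DNA binding (3.68-fold), the gap junction proteins Gja5 (2.56, 1.54 to 4.10) and Gja4 (1.93, 1.22 to 2.96), which couple arteriolar endothelium and, for Gja5, renin cells, and Atp1b2, a sodium pump subunit (1.66, 1.33 to 2.06). Gja5 had only 23 UMIs in renin-rich spots and Gja4 26. Akr1b7, Hopx, Gja5 and Gja4 were below 10 CPM in remaining spots and so were measured only through the renin-rich class. Of the 5 only Atp1b2 passed the CPM filter in both classes. Rgs5, a regulator of G protein signalling in pericytes and renin cells, stood at 112 against 77.4 CPM (1.44, 1.25 to 1.66), and the LIM protein Crip1 at 213 against 162 CPM (1.31). The transcription factor Mef2c had a fold of 1.49 (1.10 to 1.99). The growth factor receptor Pdgfrb, of all mural cells, was at 149 against 159 CPM (0.938, 0.833 to 1.05). Several genes of renin cell signalling and lineage were below 10 CPM: the beta adrenoceptor Adrb1 had 7 UMIs in renin-rich spots, the prostaglandin receptor Ptger2 6, the calcium-sensing receptor Casr 12, and the lineage factors Foxd1 8 and Tbx18 none. Summed without Ren1, the list stood at 1049 against 853 CPM, a fold of 1.23 (1.18 to 1.29) that was 1.22, 1.39 and 1.95 within the blocks.

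The class was not uniform, and its top differed from its bulk. The spots were divided by percentile of the Ren1 share, a division added after the data had been seen: 394 spots below the 50th percentile, 315 from the 50th to the 90th, and within the renin-rich class 39 from the 90th to the 95th, 32 from the 95th to the 99th and 8 above. Ren1 itself, in this order, was at 11.6, 97.2, 323, 922 and 8688 CPM. Akr1b7 was at 2.82, 4.78, 8.69, 30.9 and 195 CPM, and was found in 7 of the 8 highest spots. The juxtaglomerular list stood at 830, 884, 761, 1145 and 2093 CPM, so the 39 spots nearest the threshold had less of it than the remaining spots. Gja5 (3.77, 4.89, 1.93, 12.6 and 48.8 CPM) and Rgs5 (69.1, 88.6, 60.8, 127 and 303 CPM) dipped there too and were highest at the top. Hopx went up throughout, with 4.79, 5.01, 7.72, 14.9 and 83.0 CPM.

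Podocyte genes and smooth muscle genes were also highest at the top. The podocyte list stood at 696, 765, 732, 946 and 2723 CPM from the lowest to the highest Ren1 shares, and the vascular smooth muscle and pericyte list at 1754, 1856, 1467, 2016 and 3616 CPM. Near the threshold the smooth muscle list, like the juxtaglomerular list, dipped below both lower groups, and the podocyte list did not. In the 8 highest spots the podocyte list was 3.71-fold (3.40 to 4.04) above all other spots, the juxtaglomerular list 2.43-fold (2.21 to 2.68), the glomerular endothelium list 2.15-fold (1.88 to 2.45) and the smooth muscle list 2.02-fold (1.88 to 2.17). Of the measured genes 18.4% were higher in these 8 spots and 15.9% lower, and against that background 17 of 19 podocyte, 13 of 18 juxtaglomerular, 7 of 9 glomerular endothelial and 15 of 16 smooth muscle genes were higher. These counts include genes below 10 CPM in all other spots, which were measured only because they were higher in the 8. Of the juxtaglomerular genes Akr1b7, Gja5, Gja4, Hopx, Nrp1 and Foxd1 (4 UMIs in the 8 spots) were such genes. Over all 79 spots, in contrast, the smooth muscle list had a fold of 1.06 (1.02 to 1.09), arterial endothelium 0.979 and the macula densa list 0.978 (0.925 to 1.03). The folds of the 8 spots are pooled values, and the spots differed. Their podocyte list ranged from 580 to 7346 CPM, with 1013 and 580 CPM in the spots with 750 and 467 Ren1 UMIs, and 6 of the 8 were among the spots richest in podocyte or smooth muscle genes. Since the smooth muscle, arterial and macula densa lists were near 1 over the class of 79, the name renin-rich spots is kept. In such a comparison of spots, more cells of a type and more RNA per cell cannot be told apart.

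**Figure D4:**
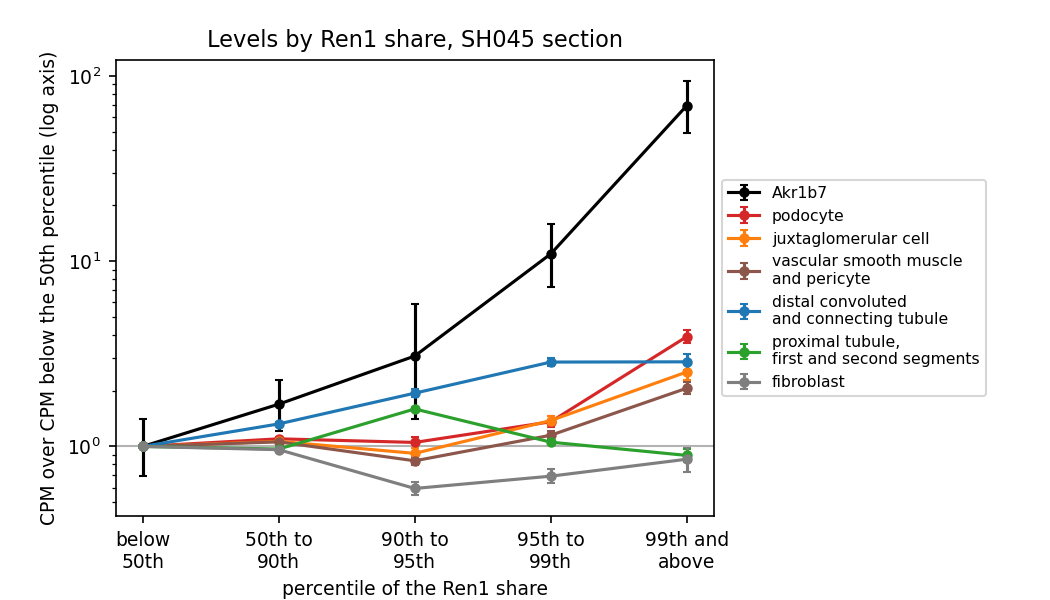
Summed CPM of Akr1b7 and of 6 gene lists by percentile of the Ren1 share, over their CPM in the 394 spots below the 50th percentile (log axis; bars are exact 95% Poisson intervals). Akr1b7 climbs throughout, the podocyte, juxtaglomerular and smooth muscle lists climb in the highest 8 spots after a flat stretch or a dip, and the distal tubule list climbs earlier.

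Macula densa genes went both ways. Pappa2 and Nos1, the 2 members most specific to it, had too few UMIs to be counted as measured and were singled out after their values were seen. Pappa2, a protease that cleaves insulin-like growth factor binding proteins, had 6 of its 7 UMIs in renin-rich spots (57.5-fold, 6.98 to 2645), all in 3 spots, among them those with 750 and 467 Ren1 UMIs. Nos1, the neuronal nitric oxide synthase of the macula densa, had 5 of 7 (24.0-fold, 3.92 to 252), also in 3 spots, again including the one with 750. None of the 3 remaining spots with either gene touched a renin-rich spot. Of the 8 measured macula densa genes Ptges, a prostaglandin E synthase, was higher (57.7 against 31.8 CPM; 1.81, 1.48 to 2.20), as was the vasopressin receptor Avpr1a (1.80, 1.20 to 2.62). The salt transporter Slc12a1, which the whole thick ascending limb expresses, was lower (118 against 224 CPM; 0.526, 0.461 to 0.598), as was Ramp3 (0.663).

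Of the 20 podocyte genes 18 were measured, 9 were higher and none lower (median fold 1.55), against 2.27% of all genes higher. A member below 10 CPM in remaining spots was measured only if higher in renin-rich spots, so it could not be called lower. The count is partly set by that filter, and Nphs1 and Wt1 are sparse by the width of their intervals. With podocyte-rich spots left out of both classes, 12 members were measured, 2 higher and 1 lower. The slit diaphragm protein Nphs1 (4.04, 2.48 to 6.43) and the surface sialomucin Podxl (173 against 69.9 CPM; 2.47, 2.19 to 2.77) had some of the largest folds, with the podocyte transcription factor Wt1 at 2.41 (1.67 to 3.41). Sema3g, a semaphorin also made by podocytes, was at 59.1 against 26.3 CPM (2.25, 1.84 to 2.74). Vegfa stood at 94.1 against 65.4 CPM (1.44), and the adaptor Cd2ap at 166 against 169 CPM (0.978). The summed list had 1013 against 725 CPM, a fold of 1.40 (1.33 to 1.46), and 1.36, 1.34 and 1.90 within the blocks.

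Renin-rich and podocyte-rich spots overlapped in part. Podocyte-rich spots, the 79 with the highest summed share of podocyte genes, took in 19 renin-rich spots, 24.1% of either set (15.1 to 35.0%), and 8.46% of remaining spots. A further view is contact: 67.1% of renin-rich spots and 42.2% of remaining spots lay within 1 grid step of a podocyte-rich spot or were one. Of the 8 spots of highest Ren1 share 5 were podocyte-rich and 4 rich in smooth muscle genes. The rule keeps podocyte-rich spots outside the renin-rich class below its Ren1 threshold, so their level is given only as a description. These 60 spots had 61.9 CPM of Ren1 (49.8 to 76.1), with no Ren1 UMI in 23 of them, against 46.8 CPM in spots in neither class.

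The overlap with smooth muscle genes was smaller. Spots rich in smooth muscle genes, chosen the same way, took in 12 renin-rich spots, 15.2% (8.10 to 25.0%), and 9.45% of remaining spots. These 12 had 4060 CPM of Ren1 (3828 to 4303) and 29.1% of all its UMIs, and 750 of their 1137 UMIs lay in 1 spot. Without that spot, a value added after the data had been seen, the other 11 had 1545 CPM (1395 to 1707). The contractile actin Acta2 was at 445 against 402 CPM over the class (1.11, 1.03 to 1.18) and at 825 CPM in the 8 highest spots.

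Among podocyte-rich spots alone, the 19 renin-rich ones had a juxtaglomerular list 1.43-fold (1.31 to 1.56) that of the other 60, a smooth muscle list 1.19-fold (1.11 to 1.27) and a podocyte list 1.27-fold (1.18 to 1.37). In that comparison 11.2% of measured genes were higher and 12.8% lower, and 10 of 19 juxtaglomerular genes were higher and 1 lower. With podocyte-rich spots left out of both classes, the juxtaglomerular list had a fold of 1.08 (1.02 to 1.13), the podocyte list 1.06 (0.993 to 1.12) and the smooth muscle list 0.945 (0.909 to 0.982). The background there was 2.38% higher and 5.01% lower, and 2 of 13 measured juxtaglomerular genes were higher.

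Other members of the renin-angiotensin system did not gather in renin-rich spots. Of 20 genes 15 were measured, 1 was higher and none lower, and the sum was at 2626 against 2449 CPM (1.07, 1.04 to 1.10). The exception was Enpep, aminopeptidase A, which degrades angiotensin II and is made by podocytes and proximal tubule; it is also on the podocyte list. It stood at 62.4 against 39.0 CPM (1.60, 1.32 to 1.93) and at 171 CPM in the 8 highest spots. Angiotensinogen, Agt, the substrate of renin, was at 79.4 against 115 CPM (0.690, 0.586 to 0.807), and per spot at 0 to 9 UMIs against 0 to 23. It was 0.550, 0.600 and 0.488 within the blocks. The converting enzyme Ace was at 49.7 against 66.0 CPM (0.752, 0.611 to 0.918). The main angiotensin receptor Agtr1a, through which angiotensin II restrains renin release, was at 49.2 against 35.7 CPM (1.38, 1.11 to 1.69) and at 83.0 CPM in the 8 highest spots. The second receptor type, Agtr2, had 3 UMIs against 105, and Agtr1b none against 1. The prorenin receptor Atp6ap2 was at 113 against 99.2 CPM (1.13) and the renin-binding protein Renbp at 60.1 against 53.2 CPM (1.13).

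Regulators of the renin gene were at similar levels in both classes: of 33 listed, 25 were measured, 2 were higher and none lower, with a summed fold of 1.02 (0.984 to 1.05). The 2 were the natriuretic peptide receptors Npr1 (27.0 against 16.3 CPM; 1.65, 1.22 to 2.19), whose cyclic GMP signal acts on renin cells and podocytes, and Npr3 (2.11, 1.51 to 2.88), which clears the peptides. Hoxd10, of the HOX family, was at 33.1 against 27.4 CPM. The cyclic AMP kinase subunit Prkar1a was at 294 against 285 CPM and the vitamin D receptor Vdr, a brake on renin transcription in mice, at 103 against 74.1 CPM (1.38).

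Genes of the SH045 target family, apart from Trpc1, were too sparse to place. Trpc6 had 7 UMIs in renin-rich spots and 31 in remaining spots, 3.31 against 1.53 CPM, with an interval of 0.804 to 5.01 around a fold of 2.16. Trpc1, its widely expressed relative, was at 18.0 against 17.1 CPM (1.05, 0.732 to 1.47). Trpc4 had 1 against 3 UMIs, while Trpc5 and Trpc7 had none in either class. Other calcium entry genes did not differ by the fold limit, such as Orai1 at 42.1 against 44.8 CPM and Stim2 at 28.8 against 31.9 CPM.

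The list with the largest summed fold was tubular. Genes of the distal convoluted and connecting tubule, the segments just past the macula densa, stood at 1629 against 770 CPM (2.12, 2.04 to 2.20), and 7 of 10 measured were higher, none lower. S100g, a calcium-binding protein, was at 351 against 136 CPM (2.58, 2.37 to 2.79), the kallikrein Klk1 at 362 against 142 CPM (2.55) and the thiazide-sensitive salt transporter Slc12a3 at 283 against 115 CPM (2.46). Calb1, Trpv5, Slc8a1 and Trpm6, all of calcium or magnesium handling, were the others. The fold was 1.91 and 2.13 in the blocks with 46 and 24 renin-rich spots, but 0.853 in the one with 8. Against adjacent remaining spots only, where 2.05% of measured genes were higher and 2.25% lower, it was 1.43 (1.37 to 1.49) with 6 of 10 genes higher, and with podocyte-rich spots left out it was 2.12. Across Ren1 shares from low to high the list went 677, 896, 1313, 1931 and 1937 CPM, with no further step of the sum at the top. Its members differed in that last step. S100g went from 410 to 610 CPM and Klk1 from 455 to 522, but Slc12a3 from 337 to 200, Trpv5 from 188 to 97.6 and Calb1 from 82.4 to 39.0. In the 8 highest spots 1 spot held 85 of the 125 S100g UMIs, and 1 held 52 of the 107 Klk1 UMIs. Per spot, Slc12a3 had 0 to 76 UMIs (median 4) in renin-rich spots and 0 to 99 (median 1) in remaining spots, so the classes overlap fully.

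Neighbouring segments went both ways. Intercalated cell genes of the collecting duct were at 500 against 311 CPM (1.61, 1.51 to 1.72), with 6 of 9 higher and 1 lower. Their proton pump subunits Atp6v1g3 and Atp6v0d2 were both at 2.06-fold. Among principal cell genes the sodium channel subunits Scnn1a (1.57) and Scnn1b (1.64), along with Scnn1g, were higher, whereas the water channel Aqp2 was at 55.8 against 179 CPM (0.312, 0.257 to 0.375), and Aqp4 and Fxyd4 were lower too. The thick ascending limb list was at 2644 against 4382 CPM (0.603, 0.587 to 0.620), and 0.617, 0.461 and 0.752 within the blocks. Its uromodulin, Umod, stood at 1854 against 3533 CPM (0.525), while Bsnd, a chloride channel subunit shared with distal tubule, was at 36.4 against 16.4 CPM (2.22, 1.71 to 2.86).

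Proximal tubule genes split by segment. Those of the first and second segments, which lie in the cortex, were at 4522 against 3423 CPM (1.32, 1.29 to 1.35), with 8 of 20 higher and none lower; the phosphate transporter Slc34a1 was at 931 against 549 CPM (1.70) and Miox at 361 against 206 CPM (1.75). Genes of the straight segment were at 2005 against 2516 CPM (0.797, 0.772 to 0.822), with 1 of 13 higher and 5 lower, among them the protease Napsa (618 against 1050 CPM; 0.588). The first list had folds of 1.19, 1.09 and 0.860 within blocks, all below its pooled value. It was highest in the 39 spots nearest the threshold, at 5529 CPM, and at 3103 CPM in the 8 highest spots.

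Stromal genes were lower over the section as a whole, with folds that varied between blocks. Of 29 structural matrix genes none was higher and 8 were lower, and the sum was at 9224 against 11329 CPM (0.814, 0.802 to 0.826); within blocks it was 1.02, 0.916 and 1.13. Col6a3, a collagen VI chain, was at 118 against 343 CPM pooled (0.343, 0.301 to 0.389) and at 0.967, 0.567 and 0.852 within blocks. Igfbp5, on the mesangium list, was at 212 against 597 CPM (0.356) and at 0.818, 0.331 and 1.12 within blocks. Fibroblast genes had 5 of 10 lower and 1 higher, with a sum at 599 against 894 CPM (0.670, 0.632 to 0.709), and 0.839, 0.643 and 1.21 within blocks. Macrophage genes, 0 of 17 called either way, were at 4704 against 4757 CPM (0.989, 0.968 to 1.01). Markers of injured tubule were at 31092 against 28384 CPM (1.10), led by clusterin, Clu, at 9230 against 6091 CPM (1.52), while Spp1 was at 16975 against 17090 CPM (0.993) and Havcr1 at 842 against 1008 CPM (0.835). Immediate early genes, which tissue handling can induce, had 0 of 14 called, with Egr1 at 207 against 164 CPM (1.26). What set their levels here was not tested.

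Among genes of at least 50 CPM that lay on the same side of 1 in all 4 blocks, the largest fold was that of Ptp4a3, a vascular phosphatase, at 71.9 against 27.5 CPM (2.62, 2.17 to 3.14), and at 3.28, 1.43 and 4.42 within the larger blocks. Podxl, Sema3g, Atp6v0d2 and Ptges, given above, followed, with membrane-bound carbonic anhydrase Car4 (1.80, 1.49 to 2.17), the parathyroid hormone receptor Pth1r (563 against 348 CPM; 1.62) and the salt transporter Slc12a2 (1.60). Cd248, a stromal surface protein, was at 1.53, as was the surface antigen Ly6a. Clu, given above, and Sorbs2 (1.46), Uap1l1 (1.45), Rgs5 and Wfdc2 (1.41), the last 4 of them short of the fold limit, completed the 15. With adjacent remaining spots only, Ptges (1.27), Car4 (1.46), Pth1r (1.21), Cd248 (1.44), Ly6a (1.17) and Clu (1.29) fell short of it too. Sorbs2 (1.13), Uap1l1 (1.29), Rgs5 (1.49) and Wfdc2 (1.17) stayed short of it there. Ptp4a3, Podxl, Sema3g, Atp6v0d2 and Slc12a2 still passed it in that comparison, from Ptp4a3 at 2.76 to Slc12a2 at 1.64. Restricting to all 4 blocks left 36 of the 237 higher and 152 of the 365 lower genes. A gene without a UMI in the 1 renin-rich spot of the fourth block counted as lower there. That block therefore removed sparse higher genes such as Akr1b7, which had no UMI there, and let sparse lower genes pass.

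The 15 lowest genes by the same rule included secreted proteins, enzymes and transporters. For them the fourth block is a weak condition, since a gene without a UMI in its single renin-rich spot counts as lower. Apela, a peptide ligand, was at 13.7 against 52.7 CPM (0.260, 0.173 to 0.376), the protease inhibitors Serpina1a and Serpina1f at 0.289 and 0.355, and Cck at 0.292. The branched-chain aminotransferase Bcat1 (0.319), Cyp7b1 (0.360), Acsm3 (0.383), Mpv17l (0.458) and Cyp2a4 (0.493) are metabolic enzymes or membrane proteins. Aqp2, Col6a3 and Umod, already given, belong to the 15 lowest, as do Wfdc15b (0.459), Frzb (0.487) and Aadat (0.508). Against adjacent remaining spots only, Mpv17l (0.673), Cyp7b1 (0.675), Aadat (0.728), Cck (0.740), Frzb (0.793) and Col6a3 (0.861) fell short of the fold limit. The others of the 15 still passed it there, from Aqp2 at 0.370 to Umod at 0.657. For Serpina1a the folds within blocks were 0.230, 0.226 and 0.246, close to the pooled one.

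The same rule in the Vehicle section gave 66 renin-rich and 593 remaining spots, from far fewer molecules. Renin-rich spots there had a median of 3055 UMIs and remaining spots 5344, so low depth goes with a high share in that section, and a renin-rich spot had 1 to 18 Ren1 UMIs with a median of 2, 16 of them with 1. Ren1 stood at 699 against 56.6 CPM. Of 9186 measured genes 18.2% were higher and 13.8% lower. Against that background 10 of 13 juxtaglomerular genes were higher (summed fold 1.59, 1.32 to 1.90), 13 of 18 podocyte genes (2.01, 1.77 to 2.27) and 7 of 12 smooth muscle genes (1.55, 1.33 to 1.80). In renin-rich spots there, 3 UMIs already come to 10.3 CPM. A gene below 10 CPM in remaining spots was measured only if higher, so these counts are partly set by the filter. Within the 4 blocks of the Vehicle section the summed folds ranged from 1.35 to 2.26, 0.874 to 5.28 and 1.16 to 3.28 in that order. Akr1b7 was at 31.0 against 5.46 CPM with 9 UMIs in renin-rich spots (5.67). The distal and connecting tubule list was at 1.19 (1.16 to 1.22) with none of 11 members higher, and that of the first proximal segments at 0.821 (0.796 to 0.847). The positions table of that section flags 570 of its 676 deposited spots as under tissue, and 335 spot barcodes occur in both sections, as the slides share their barcode set. The sections also differed in their remaining spots. The injured tubule list was at 28384 CPM there in SH045 and 1844 in Vehicle, and structural matrix at 11329 and 1234. Proximal segments 1 and 2 were at 3423 CPM in SH045 and 18304 in Vehicle, and distal and connecting tubule at 770 and 23550. No difference between the sections was tested.

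**Figure D5:**
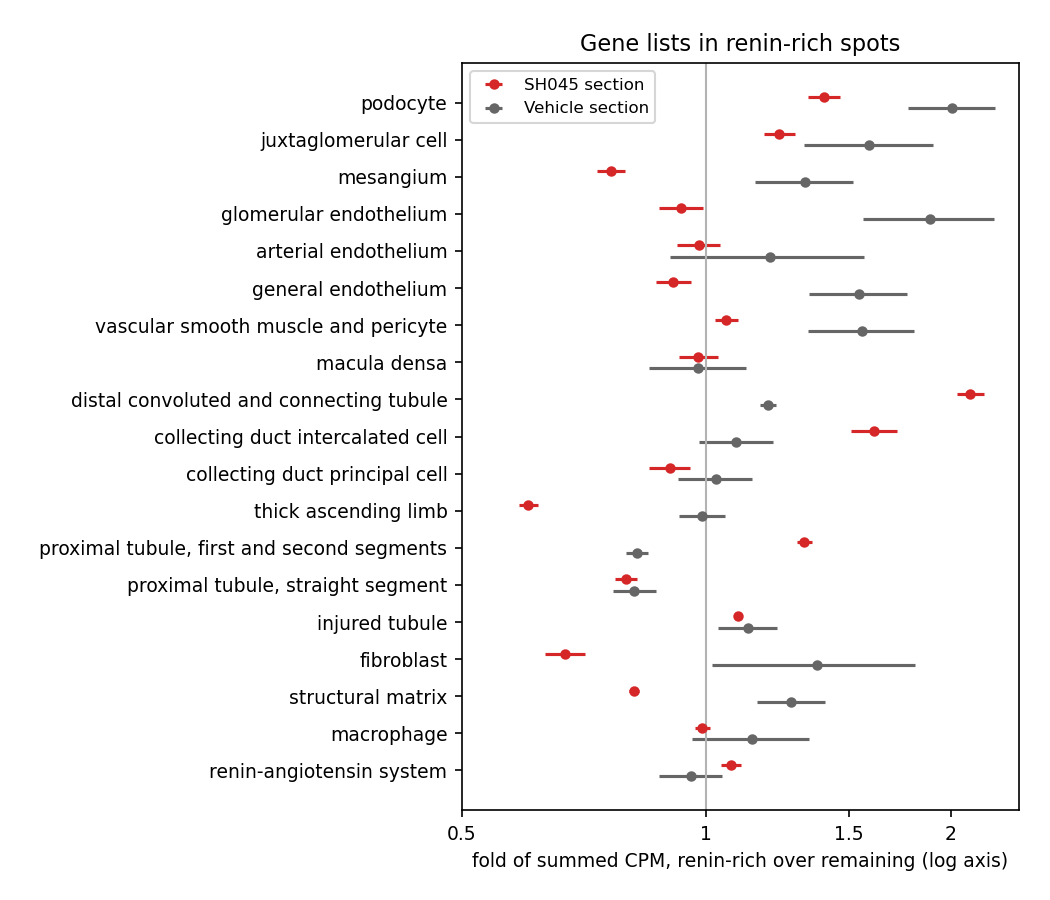
Fold of summed CPM of 19 gene lists in renin-rich over remaining spots (log axis), red for the SH045 section and grey for the Vehicle section, with exact 95% intervals of counting error. Podocyte and juxtaglomerular genes are above 1 in both, at 1.40 and 1.23 in the SH045 section and 2.01 and 1.59 in the Vehicle section, and the distal and connecting tubule list is at 2.12 and 1.19.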

How the data were processed

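For each section the authors deposited raw UMI counts by gene and spot, with spot positions. They were made with Space Ranger 2.0.1, per the file headers, on build mm10, per the submitters' processing notes; alignment settings were not given in the sources used here. Counts were added up within a class of spots and scaled to CPM (Ren1 left out of the total for other genes), with exact Poisson 95% intervals, exact conditional binomial intervals for folds and Clopper-Pearson intervals for shares. A gene was measured at 10 CPM in the higher class and called at 1.5-fold. Folds against 0 used a floor of 3 counts. There were 32 gene lists with 452 entries. The members and lists were chosen with earlier results of these data known. Genes named were the juxtaglomerular, renin-angiotensin and TRPC genes, the 15 highest and 15 lowest folds of at least 50 CPM on 1 side of 1 in all 4 blocks (without Ren1, mitochondrial, ribosomal protein, haemoglobin, immunoglobulin and predicted genes) and the 3 most abundant of each list; other genes named were chosen after their values were seen, and a few genes that the rule names are not reported here. No doublet caller was run, since a spot is not a cell. The scripts were tested on simulated data. Alternatives were the percentile, depth, scaling, thinning, averaging and the spots compared with. Tools were Python 3.11.15, numpy 2.4.6, pandas 2.3.3 and scipy 1.17.1. Depth was 4502 to 50444 UMIs per renin-rich spot.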

Additional observations from a re-analysis of the deposited data

Results flagged for a closer look

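Each of the following gene lists had a summed fold (renin-rich over remaining spots) on opposite sides of 1 in the SH045 and the Vehicle section. With 1 section each, none of these differences was tested. Median depth per renin-rich spot was 27955 UMIs in SH045 and 3055 in Vehicle, and whether depth has a part in the differences was not tested. The sections also differed widely in list levels in remaining spots, given with the Vehicle section above, and the part of this was not tested either. The mesangium list was at 0.764 (0.734 to 0.795) in SH045 and 1.32 (1.15 to 1.52) in Vehicle. Glomerular endothelium was at 0.931 (0.874 to 0.992) in SH045 and 1.89 (1.56 to 2.26) in Vehicle, and general endothelium at 0.910 (0.866 to 0.957) and 1.54 (1.34 to 1.77) in that order. Fibroblast genes were at 0.670 in SH045 and 1.37 (1.02 to 1.81) in Vehicle, and structural matrix at 0.814 and 1.27 (1.15 to 1.40) in that order. Genes of proximal tubule segments 1 and 2 were at 1.32 in SH045 and 0.821 in Vehicle. The list of T, B and plasma cells, with 3 measured genes in SH045 and 2 in Vehicle, was at 1.12 (1.08 to 1.16) in SH045 and 0.618 (0.384 to 0.946) in Vehicle. Adrenal and perirenal fat rested on Fabp4 as its 1 measured gene and was at 0.617 (0.535 to 0.709) in SH045 and 2.06 (1.22 to 3.30) in Vehicle; Fabp4 is also a capillary endothelial gene. Within blocks of the SH045 section the glomerular endothelium list was at 1.05, 0.932 and 1.49, and the mesangium list at 1.04, 0.800 and 1.24, so their pooled values below 1 did not hold in each block. In the 8 SH045 spots at or above the 99th percentile glomerular endothelium was at 2.15, general endothelium at 1.44 and mesangium at 1.16, and against adjacent remaining spots they were at 1.14, 1.02 and 0.986 in that order, so the SH045 direction of these lists depends on the choice of spots. At the 99th percentile the lists of proximal segments 1 and 2 (0.879) and of T, B and plasma cells (0.899) were below 1 as well.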

How the results depend on the processing

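Values below are, in order, the genes higher and lower in renin-rich spots and then the summed folds of the juxtaglomerular, podocyte, smooth muscle, fibroblast, first and second proximal segment, and distal and connecting tubule lists, as far as they moved by more than the allowed spread. At the 80th percentile they were 116 and 176 genes, then 1.12, 1.26 (smooth muscle did not move beyond the spread), 0.710, 1.27 and 1.89. At the 95th percentile 560 genes were higher and the folds were 1.56, 1.77, 1.30, 0.749, 1.01 and 2.43. At the 99th percentile, added after the data were seen, they were 1950 and 1689 genes, then 2.43, 3.71, 2.02, 0.895, 0.879 and 2.30, so of these 6 lists the proximal one turned direction; the endothelial, mesangial and T, B and plasma cell lists turned there too. Against adjacent remaining spots 234 genes were lower, the juxtaglomerular fold was 1.29, smooth muscle 1.12, fibroblast 0.882, proximal 1.23 and distal 1.43. Without the 10 renin-rich spots of most UMIs 367 genes were higher and the folds were 1.37, 1.58, 1.16, 0.730, 1.05 and 2.29. With the mean of single-spot CPM the podocyte fold was 1.48, proximal 1.39 and distal 2.23, and with thinned scores the proximal fold was 1.25. Without the 2 spots of highest Ren1 share, also added later, the distal fold was 2.01. With no filter on CPM 1852 genes were higher and 1417 lower, because sparse genes then enter. Of 727 alternative values, 467 stayed within the spread, 260 moved and 0 of those called reversed. The lists that turned direction at the 99th percentile, given above, are not counted in that 0. The TMM factor and the minimum of 5000 UMIs per spot moved 0 and 2. Of the neighbours of renin-rich spots 26.0% were renin-rich at the 95th percentile and 46.9% at the 80th, and at the 80th 29.7% of renin-rich spots were podocyte-rich, against 17.6% of remaining spots. In the Vehicle section, with flagged spots only, the podocyte fold was 2.55 and the juxtaglomerular fold 1.89. The causes of the moves were not tested. No paired analysis was possible because each treatment has 1 section. Counting error limits genes under about 10 CPM, and 1 section of 1 mouse gives no spread between animals.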

Other observations

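Immunoglobulin genes were left out of the named genes, and single spots decided their values; these were singled out after their values were seen. Iglc1, a lambda light chain constant gene, was at 153 against 11.8 CPM (13.0-fold) in renin-rich over remaining spots, and 270 of its UMIs lay in 1 renin-rich spot, without which the fold was 2.15. Ighg2b, a heavy chain constant gene, was at 68.1 against 17.8 CPM (3.83-fold), with 56 UMIs in a renin-rich spot that held 53 Ren1 UMIs, and 2.38-fold without that spot.

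The thyroid hormone activating deiodinase Dio2 was among the lowest genes without passing the rule for named genes. It was at 8.51 against 56.4 CPM (0.151, 0.0891 to 0.239) and had at most 1 UMI per renin-rich spot, against up to 19 per remaining spot. Within the blocks with 46, 8 and 24 renin-rich spots it was at 1.32, 0.0958 and 0.633.

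The cathepsin Ctsd was the 1 gene of 14 measured among lysosomal proteases and secretory granule genes that passed the fold limit, at 3308 against 2191 CPM (1.51, 1.47 to 1.55). Cathepsin B, Ctsb, proposed as a prorenin-processing enzyme, was at 1345 against 1214 CPM (1.11, 1.06 to 1.15).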
